A study of Mus musculus with 2 samples.

Results

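Potassium channel genes were followed in the retina of mouse pups, as the set of genes in the deposited transcript table whose symbol starts with Kcn. The table held 95 such symbols among 23356, and 91 formed the set. The other 4 (Kcnk9, Kcnj10, Kcnj13 and the noncoding Kcnq1ot1) were not part of it. By symbol, 40 of the 91 were voltage-gated pore subunits (Kcna, Kcnb, Kcnc, Kcnd, Kcnf, Kcng, Kcnh, Kcnq, Kcns and Kcnv), 13 were inward rectifiers (Kcnj) and 13 were two-pore channels (Kcnk). A further 8 were calcium-activated channels and their relatives (Kcnma1, Kcnn, Kcnt, Kcnu), and 17 were regulatory subunits (Kcnab, Kcne, Kcnip, Kcnmb and Kcnrg).

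RNA was sequenced from retinas at postnatal day 15, with 1 library from a control and 1 from a triple mutant. Both genotypes were Dnmt1 flox/flox, Dnmt3a flox/flox and Dnmt3b flox/flox, so that the loxP-flanked alleles of all 3 DNA methyltransferase genes were shared. The control was Rx-Cre negative and the mutant Rx-Cre positive; Rx (Rax) regulatory sequence drives Cre recombinase in the early retinal lineage, so blood vessels and microglia, which arise elsewhere, are not its target. The strains are labelled C57BL/6 (control) and C57BL/7 (mutant); the labels do not say how many animals went into each library. With 1 library per group there is no replicate error and no test between genotypes: every difference is between these libraries.

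Potassium channels let K+ leave or enter a cell along its gradient, and so set the resting potential and end each depolarisation. Voltage-gated (Kv) channels are tetramers that open on depolarisation, inward rectifiers (Kir) pass current best near rest, two-pore (K2P) channels carry leak current, and calcium-activated channels couple Ca2+ entry to repolarisation. In the retina, the electrically silent subunit Kcnv2 (Kv8.2) helps to shape the photoreceptor light response, Kv3 channels serve fast-repolarising interneurons such as starburst amacrine cells, and Kv1 channels set the excitability of ganglion cell axons.

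The shared feature of the pore subunits is the selectivity filter, a short loop read as threonine or serine, any residue, glycine, tyrosine or phenylalanine, and glycine. Codons for it were present in the longest GENCODE coding sequence of all 74 pore-subunit genes, and in 10 of the 13 two-pore genes they occurred at least 2 times. None of the 17 regulatory subunits had them, so the split by symbol into pore and regulatory genes was also a split by sequence. Coding stretches of 39 bases are shown for Kcnj14 and Kcnv2, both above 100 FPKM in the control, for Kcng4, which went the opposite way, and for the next-highest inward rectifier, Kcnj9, and the ERG channel Kcnh2. They run 5′ to 3′ on the coding strand, from GENCODE M21 transcripts (GRCm38), with the 5 filter codons in capitals.
Kcnv2: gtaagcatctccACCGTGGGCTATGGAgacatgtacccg
Kcng4: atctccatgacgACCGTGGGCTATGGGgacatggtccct
Kcnh2: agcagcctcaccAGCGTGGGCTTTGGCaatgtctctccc
Kcnj14: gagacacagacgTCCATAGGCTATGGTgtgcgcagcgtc
Kcnj9: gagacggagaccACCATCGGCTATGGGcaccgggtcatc
The filter starts at codon 474 of 562 in Kcnv2, 416 of 506 in Kcng4, 626 of 1162 in Kcnh2, 145 of 434 in Kcnj14 and 120 of 393 in Kcnj9. The genes lie on chromosome 19 (Kcnv2, 27322588 to 27337179, plus strand), chromosome 8 (Kcng4, 119623854 to 119635680, minus), chromosome 5 (Kcnh2, 24319589 to 24351604, minus), chromosome 7 (Kcnj14, 45816460 to 45824782, minus) and chromosome 1 (Kcnj9, 172320501 to 172329318, minus).

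Potassium channel genes were mostly lower in the mutant library, by modest amounts. Levels are FPKM (fragments normalised to transcript length and library size), summed over a gene's transcripts, and a difference is the log2 ratio of mutant to control after 1 FPKM was added to each. Of the 91 genes, 57 had at least 1 FPKM in at least 1 library and are called measured; none of these was under 1 FPKM in either library. Among them 49 had a log2 ratio below 0 and 8 above it, with 50% of all 13280 measured genes below 0. The median log2 ratio was -0.36 (quartiles -0.59 and -0.24), and over all measured genes it was 0.00 (quartiles -0.16 and 0.15). A log2 ratio of at most -0.5 was found for 17 of the 57 and for 4.74% of all measured genes, while a ratio of at least 0.5 was found for 1 of the 57 and for 5.37% of all. The size rule was a log2 ratio of 1 or more, or of -1 or less. Only Kcnj14 passed it, as 1 gene lower and none higher, where 0.648% of all measured genes passed as lower, 1.84% as higher and 2.49% in either direction. Summed over the 57, the level was 1286 FPKM in control and 950.1 in mutant retina, 73.9% of the control, or 79.2% without Kcnj14.

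By the steps between the lowest values, 1 FPKM stood for 48.3 fragments per kb in control and 55.4 in mutant retina. The measured potassium channel genes rested on at least 124 control fragments each. Ranges in brackets are 95% exact binomial intervals on the recovered fragments and cover counting error only, not the spread between animals or libraries. The interval of the ratio lay below 1 for 49 of the 57 and above it for 4. Over the 13092 measured genes with an interval these shares were 34.7% and 33.1%. Dnmt1 and Dnmt3a, which check the labels, stood at 53.5% and 64.1% of the control in the mutant, and the scarce Dnmt3b at 80.4%.

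**Figure D1:**
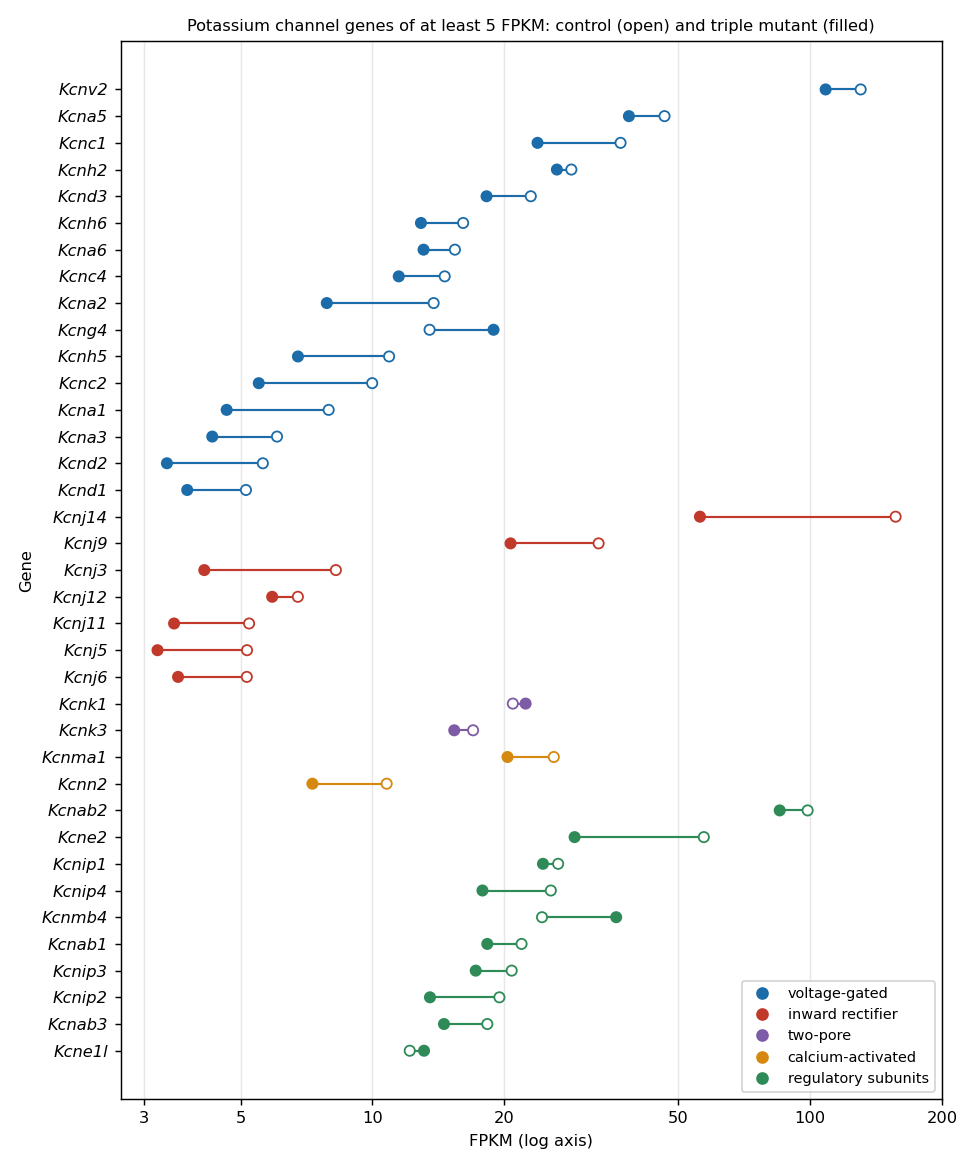
FPKM (log axis) of 37 potassium channel genes with at least 5 FPKM in either library, ordered by class and control level, with 3 of the 40 such genes not shown; open points are the control library and filled points the mutant library. The filled point lies left of the open one for 33 of the 37, and farthest left, relative to its open point, for Kcnj14; Kcng4, Kcnmb4, Kcnk1 and Kcne1l lie the other way.

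Voltage-gated pore genes carried about as much of the summed FPKM as all other classes together, 49.96% in control and 52.7% in mutant retina. Of 28 measured, 25 were lower; their median log2 ratio was -0.39, and 9 were at -0.5 or lower. The sum was 642 FPKM in control and 501 in mutant retina.

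Kcnv2, which makes no channel alone and whose loss in people causes cone dystrophy with supernormal rod response, had 130.5 FPKM in control and 108.5 in mutant retina, 83.2% of the control (81.9 to 84.5). Kcnb2, a delayed rectifier gene, was scarce, with 2.35 and 1.52 FPKM.

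Among the other silent subunits, Kcng4 (Kv6.4), whose locus drives Cre in a line that labels alpha ganglion cells, was higher in the mutant. It had 13.5 FPKM in control and 18.9 in mutant retina, 140.0% of the control (133 to 147). Kcng1 had 2.04 and 2.34 FPKM, with an interval that includes no difference (95.9% to 138%). Kcnf1 (2.22 and 1.37 FPKM) and Kcns2 (2.28 and 1.69) were lower.

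The Kv1 genes, which set spike threshold and axonal excitability, were all lower where measured. Kcna5 (Kv1.5) was the highest, with 46.5 and 38.6 FPKM, and Kcna6 had 15.4 and 13.1. The axonal subunit genes Kcna2 and Kcna1 had the largest differences of the 6: Kcna2 had 13.8 and 7.87 FPKM, 57.0% of the control (55.0 to 59.1), and Kcna1 had 7.95 and 4.65, or 58.5% (53.9 to 63.4). Kcna3 (6.06 and 4.31 FPKM) and the inactivating Kcna4 (3.84 and 2.51) lay between. Summed over 8 genes, Kv1 pore FPKM was 75.9% of the control.

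The Kv3 genes, whose channels open and close fast enough for repeated spiking, were lower by differing amounts. Kcnc1 had 36.9 and 23.8 FPKM, 64.6% of the control (62.6 to 66.7). Kcnc2, which with Kcnc1 is used by starburst amacrine cells, had 9.99 and 5.501 FPKM, 55.1% of the control (50.5 to 60.0). Kcnc4 differed less, with 14.6 and 11.5 FPKM.

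Kv4 genes, which carry the transient A-type current, had their highest level in Kcnd3 (23.0 and 18.2 FPKM). Kcnd2 had 5.62 and 3.39, and Kcnd1 had 5.14 and 3.78. Kcnd2 was the lowest relative to its control, at 60.4% (55.5 to 65.6).

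Of the Kcnq genes, Kcnq3, which encodes a subunit of the muscarine-sensitive potassium current at axon initial segments, had 2.86 and 1.37 FPKM, 47.9% of the control (44.1 to 52.0).

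The ether-a-go-go family (Kcnh) split by member. Kcnh2, which encodes the ERG channel of cardiac repolarisation, had 28.5 and 26.4 FPKM, 92.7% of the control (89.3 to 96.1), the smallest decrease of the measured voltage-gated genes. Kcnh6 had 16.1 and 12.9. Kcnh5 (10.9 and 6.76 FPKM) and Kcnh7 (2.71 and 1.26) were lower by more, at 61.9% and 46.7% of the control, and Kcnh1 had 3.59 and 2.65. Kcnh7 overlaps exons of Gca on the opposite strand (9.01 and 10.3 FPKM), and without strand information the fragments of the pair are not separable.

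Inward rectifier genes had the lowest class median, and all 9 measured were lower in the mutant. The median log2 ratio was -0.55, 5 of 9 were at -0.5 or lower, and without Kcnj14 the median was -0.50. The summed level was 227 FPKM in control and 101 in mutant retina, 44.7% of the control; without Kcnj14 it was 69.7 and 45.2 FPKM, or 64.8%.

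Kcnj14, which encodes Kir2.4 of the strongly rectifying Kir2 family, stood apart from the other potassium channel genes. It had 157 FPKM in control and 56.0 in mutant retina, 35.7% of the control (34.8 to 36.7), with a log2 ratio of -1.47. On that scale the next lowest was Kcne2 at -0.96; as a percentage of the control, with nothing added, Kcnh7, Kcnq3, Kcnk12 and Kcnj3 lay below Kcne2. Its level was above those of Kcnv2 and Kcnab2 in the control and below both in the mutant, and its share of the inward rectifier sum was 69.2% and 55.4%. In the authors' deposited table it was the only transcript of the set called different (NM_145963, q = 0.0184), among 107 transcripts of the set that were tested; 69 of 19556 tested were called in the whole table. Those values come from 1 library per genotype and compare the libraries, not the genotypes. Of the cone markers, 9 of 10 were also lower, with a median log2 ratio of -0.88 for the list. The cone opsin gene Opn1sw was the lowest (177 and 45.0 FPKM, log2 ratio -1.95), and Gnb3 was higher (218 and 347 FPKM). The part of cones in the Kcnj14 difference was not tested.

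The remaining Kir2 genes were scarcer and differed less. Kcnj2 (Kir2.1) had 2.91 and 1.54 FPKM, 53.0% of the control (47.1 to 59.7), and Kcnj12 (Kir2.2) had 6.76 and 5.90, or 87.4% (78.6 to 97.1). The 4 genes of the G-protein-gated channels, which slow firing after metabotropic receptors are activated, were lower together, with a summed level of 61.5% of the control. Kcnj9 (GIRK3) was the highest of them, with 32.9 and 20.7 FPKM. Kcnj3 (GIRK1), the subunit that most of these channels share, had 8.25 and 4.13 FPKM, 50.04% of the control (46.5 to 53.8). Kcnj5 had 5.17 and 3.23 FPKM, and Kcnj6 had 5.17 and 3.60. The ATP-sensitive channel genes were lower by similar amounts: Kcnj11 (Kir6.2) had 5.23 and 3.52 FPKM and Kcnj8 (Kir6.1), a pericyte and smooth muscle gene, 3.39 and 2.57. Of the 10 pericyte and endothelial markers, 8 were lower, with a summed level of 89.9% of the control. The pericyte genes among them ranged from 62.9% (Pdgfrb) to 83.0% (Cspg4) of the control. The endothelial genes ranged from 81.0% (Pecam1) to 110.8% (Cldn5). The part of these cells in the Kcnj8 difference was not tested.

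Of the two-pore class 5 of 13 were measured, and the 2 highest differed least. Kcnk1 (TWIK-1) had 20.9 and 22.4 FPKM, 107% of the control (101 to 113), and the acid-sensitive Kcnk3 (TASK-1) had 17.0 and 15.4, or 90.5% (86.1 to 95.2). Kcnk12 (THIK-2) was lower, with 3.52 and 1.71 FPKM, 48.7% (40.2 to 58.8). The mechanosensitive channel genes Kcnk2 (TREK-1, 1.96 and 1.498 FPKM) and Kcnk4 (TRAAK, 1.57 and 1.18) had intervals just under no difference, with upper bounds of 98.2% and 97.9%. For Kcnk2 the mutant sum includes 0.331 FPKM assigned to a noncoding transcript that was near 0 in the control. Its coding transcripts were lower, at 0.949 and 0.391 FPKM and at 1.01 and 0.776 FPKM. The median log2 ratio of the class was -0.24 and its sum stood at 93.8% of the control.

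Calcium-activated genes and their relatives had 4 of 8 measured. Kcnma1, the large-conductance (BK) pore gene, had 26.0 and 20.4 FPKM, 78.4% of the control (75.3 to 81.6). The small-conductance genes went apart: Kcnn2 had 10.8 and 7.29 FPKM, 67.7% (61.0 to 75.1), and Kcnn1 had 4.30 and 4.34, 101% (91.8 to 111). The sodium-activated channel gene Kcnt1 had 4.63 and 2.98 FPKM, or 64.4% (59.0 to 70.4).

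**Figure D2:**
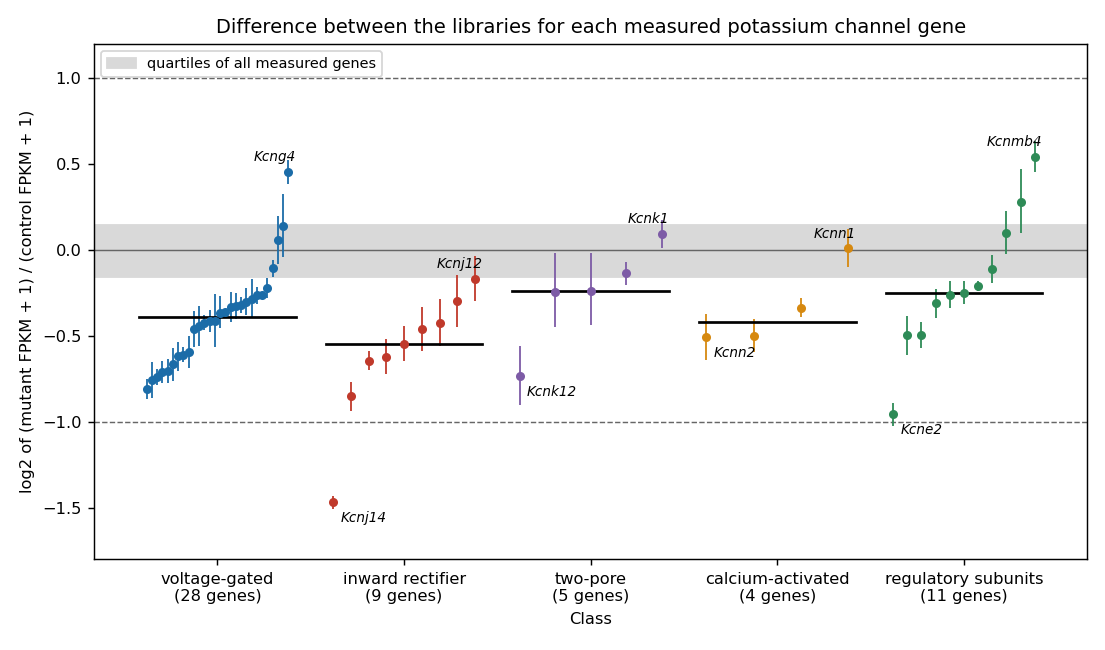
Log2 ratio of mutant to control (with 1 FPKM added) for each of the 57 measured potassium channel genes, by class; points are genes with 95% counting intervals, black lines are class medians, the grey band spans the quartiles of all measured genes and the dashed lines mark the size rule. All 5 class medians lie below the grey band, and only Kcnj14, at -1.47, lies outside the dashed lines.

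Regulatory subunits differed less than the pore genes as a class, and held the measured gene with the highest ratio. Of 11 measured, 8 were lower, and the class median was -0.25; of 46 measured pore genes 41 were lower, and the median was -0.41. Whether the medians differ could not be tested with 1 library per group. The summed level was 326 FPKM in control and 271 in mutant retina, 83.0% of the control.

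Kcne2 encodes a single-span subunit that assembles with Kv7 and ERG pores and is abundant in ion-transporting epithelia. It had 57.2 FPKM in control and 29.0 in mutant retina, 50.7% of the control (48.2 to 53.2), with a log2 ratio of -0.96. The pigment epithelium markers were far lower as a list, 8 of 9 measured passing the size rule and their sum standing at 135 FPKM and 7.08 FPKM (5.26% of the control). All 7 measured lens and ciliary body markers did too, with sums of 166 and 6.37 FPKM (3.83%), and Lim2 was listed at 0 in the mutant. The part of these tissues in the Kcne2 difference was not tested. Kcne1l (now Kcne5) had 12.2 and 13.1 FPKM, with an interval that includes no difference (98.3% to 118%).

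Kcnmb4, the neuronal beta subunit that slows BK channels, had the highest ratio of the measured genes. It had 24.4 FPKM in control and 36.1 in mutant retina, 148% of the control (138 to 158). Annotated antisense genes (Kcnmb4os1 and Kcnmb4os2) overlap it and have no row in the table used, so without strand information their fragments are not separable. The same limit holds for other members, among them Kcnj9, Kcnj3, Kcnma1 and Kcnk1. The level of Kcnmb4 per Kcnma1, its pore partner, was 0.9399 in control and 1.77 in mutant retina. Kcnmb2, the inactivating beta subunit, was scarce and also higher, with 1.03 and 1.46 FPKM (142%, 114 to 177). The BK beta group, nearly all of it Kcnmb4, was the only one of the 11 channel groups shown whose summed level was higher in the mutant, at 147% of the control. This depends on the grouping: by symbol, the measured Kcng genes were also higher together, with 15.5 and 21.3 FPKM (137%).

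The Kv1 beta genes, which encode cytoplasmic subunits with a reductase fold, stayed closer to the control than the Kv1 pores. Kcnab2 had 98.7 and 85.2 FPKM, 86.3% of the control (84.6 to 88.1), Kcnab1 had 21.9 and 18.3, and Kcnab3 had 18.3 and 14.6. Together they stood at 85.0% of the control, against 75.9% for the Kv1 pores. The KChIP genes, calcium sensors bound to Kv4, stood at 79.1%, near the 75.2% of the Kv4 pores. Kcnip1 differed least (26.6 and 24.5 FPKM, 92.3%), Kcnip3, also known as the transcriptional repressor DREAM, had 20.8 and 17.2, and Kcnip2 (19.5 and 13.5) and Kcnip4 (25.6 and 17.8) differed most, at 69.4% and 69.8%.

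**Figure D3:**
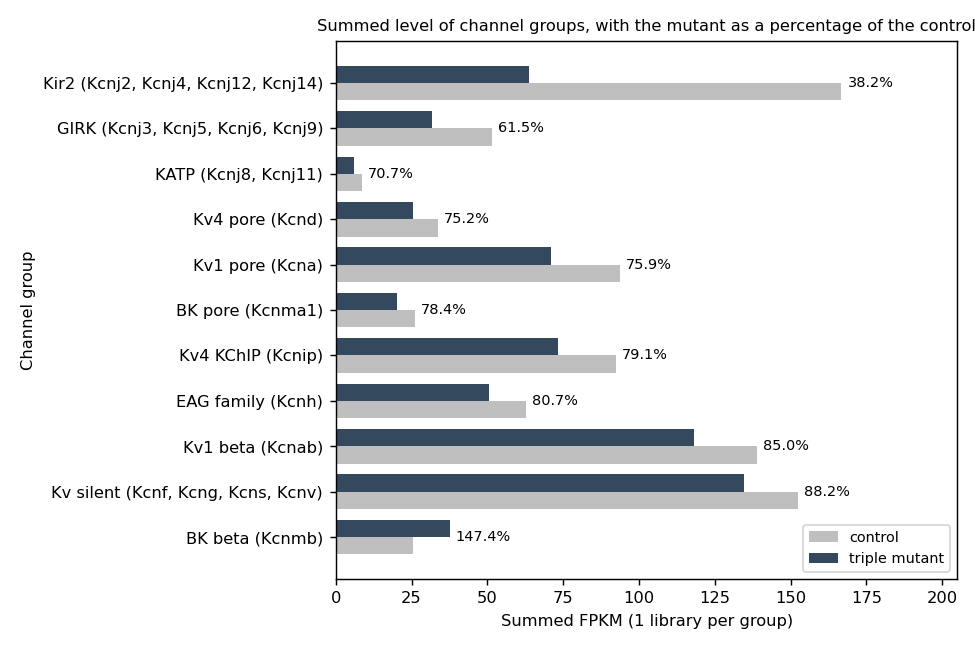
Summed FPKM of 11 groups of potassium channel genes in the control (grey) and mutant (dark) library, with the mutant as a percentage of the control beside each pair; genes under 1 FPKM are included. The lowest percentage is that of the Kir2 group (38.2%), which Kcnj14 leads, and the BK beta group alone is above its control.

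The split between transcripts of a gene differed little among genes of at least 5 FPKM in both libraries. Of 10 measured members with several transcripts and at least 5 FPKM in both libraries, none differed by 30 points or more in the share of any transcript. In Kcnma1, with 22 transcripts listed, the leading transcripts NM_001253375 (7.90 and 8.09 FPKM) and NM_010610 (7.12 and 7.34) were slightly higher in the mutant. Transcripts NM_001253360 and NM_001253361, at 1.41 and 1.58 FPKM in the control, were listed at 0 in the mutant, so the lower level of Kcnma1 rests on its minor transcripts as Cuffdiff assigned them. In Kcnip2, NM_001276358 had 1.62 FPKM in the control and was near 0 in the mutant, and in the authors' deposited table its q was 0.37. The Kcnc1 transcripts NM_001112739 (19.3 and 13.9) and NM_008421 (17.6 and 9.96) were both lower.

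The remaining 34 potassium channel genes were under 1 FPKM in both libraries, the highest being Kcng2 at 0.908 and 0.890. At these levels most differences were not detectable: the interval lay below 1 for 5 and above 1 for 2. Those 2 were Kcnk6 (0.205 and 0.534 FPKM, 261%, 180 to 385) and Kcne3 (0.157 and 0.462), which rested on about 5 control fragments. Kcnmb3 and Kcnk16 were listed at 0 in both libraries. A floor of 3 fragments over 2 kb corresponds to 0.0331 FPKM in control and 0.0289 in mutant retina. Kcnj16, the usual Kir5.1 partner in Mueller glia, had 0.0833 and 0.107 FPKM.

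Genes that work with potassium channels but carry other symbols differed less. Of 33 listed, 31 were measured, 0 passed the size rule, 23 were lower, and the median log2 ratio was -0.21. The hyperpolarisation-activated channel genes Hcn2 (14.9 and 12.9 FPKM), Hcn3 (15.1 and 13.4) and Hcn4 (10.2 and 9.13) were all slightly lower. The Kv4 auxiliary genes Dpp6 (39.9 and 34.4) and Dpp10 (6.87 and 5.27) were lower, as was Adam22, a Kv1 partner, with 19.2 and 12.6. Of the sodium-potassium pump genes, which maintain the gradient, the beta subunit genes Atp1b1 and Atp1b2 had 309.8 and 235 FPKM and 701 and 732 FPKM. The lowest ratio was that of Slc24a2, a sodium/calcium-potassium exchanger gene, at 14.3 and 6.72 FPKM (log2 ratio -0.99), and the rod exchanger Slc24a1 had 296 and 207. The related Slc24a4 had 22.8 and 16.4 FPKM, and Slc24a3 had 89.6 and 79.2.

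Markers of retinal cell types differed in both directions beside the channels. All 10 ganglion cell markers were lower (median log2 ratio -0.57, summed level 979 and 651 FPKM), as were 9 of 10 cone markers (median -0.88, 1187 and 789 FPKM) and all 9 amacrine markers (median -0.24, 497 and 413). Of 5 measured horizontal cell markers 4 were lower, with a sum of 103 and 73.0 FPKM. Rod markers lay near no difference (5 of 9 lower, median -0.04, 12505 and 10932 FPKM). Bipolar markers (2 of 9 lower, median 0.09, 808 and 1056 FPKM) and Mueller glia markers (2 of 8 lower, median 0.27, 2431 and 2564) were mostly higher, and all 10 microglia markers were higher (29.8 and 123 FPKM). In whole-tissue RNA, fewer cells of a type and less RNA per cell cannot be told apart, and the part of cell composition in the channel differences was not tested.

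**Figure D4:**
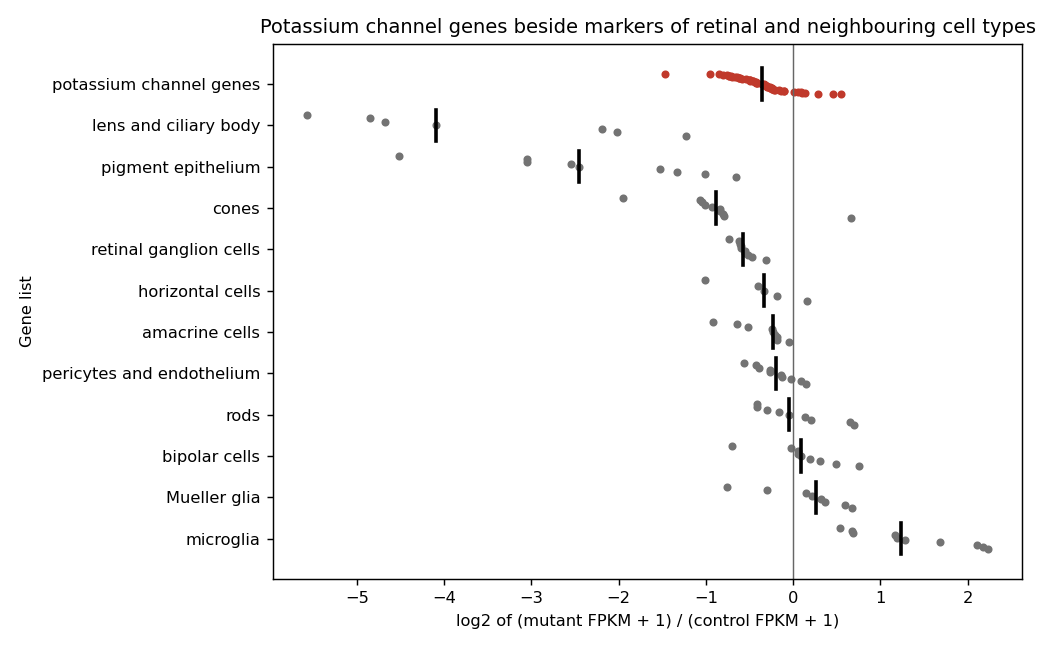
Log2 ratio of mutant to control for the 57 measured potassium channel genes (red) and for measured markers of 11 cell types or neighbouring tissues (grey), each point a gene and each black line a list median. The median of the channels (-0.36) lies between those of ganglion cells (-0.57) and horizontal cells (-0.34).

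Promoters were described because DNA methyltransferases act on CpG dinucleotides; no methylation was measured in these data. RefSeq promoter sequence (GRCm38.p6) was matched for 67 of the 91 genes and 40 of the 57 measured, taking the start site nearest the deposited locus. Kcnj14, the gene past the size rule, had no match. For some matched genes the nearest start was far from the end of the deposited locus (43240 bases for Kcnj12 and 22013 for Kcnh2). Their counts may therefore not describe the start in use. In the 250 bases before the start, the 40 had a median of 9 CpG, against 16 for 9819 measured genes with a match. At least 10 CpG were present in 47.5% of the 40 and 75.5% of the 9819. The median log2 ratio was -0.42 for the 19 with at least 10 CpG and -0.25 for the 21 with fewer, and 0.00 and -0.02 over all measured genes split alike. The photoreceptor homeobox motif TAATCC, on either strand, was found in 1 of the 40 (Kcnj9) and in 5.18% of the 9819. The sequences below are those of the lowest and highest log2 ratio among matched genes whose upstream stretch overlaps no annotated exon, 5′ to 3′ on the gene's strand with CpG in capitals: Kcne2 (chr16:92292139-92292388, plus strand, 9 CpG) and Kcng4 (chr8:119635681-119635930, minus strand, 4 CpG).
Kcne2: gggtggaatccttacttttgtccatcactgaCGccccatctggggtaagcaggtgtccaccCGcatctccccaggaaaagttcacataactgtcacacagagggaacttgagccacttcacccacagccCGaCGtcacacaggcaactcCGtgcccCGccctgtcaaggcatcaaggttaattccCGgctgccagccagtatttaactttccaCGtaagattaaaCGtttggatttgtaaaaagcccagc
Kcng4: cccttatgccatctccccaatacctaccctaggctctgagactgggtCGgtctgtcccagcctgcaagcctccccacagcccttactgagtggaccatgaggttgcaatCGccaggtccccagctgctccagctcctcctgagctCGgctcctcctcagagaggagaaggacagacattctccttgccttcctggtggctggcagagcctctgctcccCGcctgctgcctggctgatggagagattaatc
Both stretches have fewer than 10 CpG; that of Kcnmb4, the measured gene with the highest ratio, had 43.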

How the data were processed

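Total RNA from dissected retinas was sequenced in 1 control and 1 mutant library. TopHat2 2.0.8, Cuffdiff 2.1.1 and mm10 are named in the submitters' processing notes; the sources used here do not give the annotation, read layout or strandedness. The authors deposited FPKM per RefSeq transcript, in 2 tables from separate runs, and a p-value and q-value per transcript, per the file headers. The table with symbols (30608 rows) was used and the other served as an alternative. Gene FPKM was the sum over transcripts, for 15318 symbols with at least 1 transcript of status OK and none failed or with excessive data.

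Measured genes had at least 1 FPKM in either library; log2 ratios used a pseudocount of 1. With a single library each, the genotypes were not tested against each other. Fragments were recovered from FPKM and GENCODE M21 lengths: a step was sought of which low values are whole multiples within 10%, which held for 76.5% of 204 control values and 73.1% of 197 mutant values, with step and fragment length (125 bases) chosen to maximise that share. For genes with several transcripts, intervals leave out the error of assigning fragments to transcripts. Coordinates are GENCODE M21 on GRCm38, the assembly mm10 denotes; all 91 genes overlapped their deposited locus. Opposite-strand exons of a gene of at least 1 FPKM overlap 3 members (Kcnh3, Kcnh7 and Kcnk3). That count leaves out overlapping genes without a row, whose level is unknown. Such genes overlap Kcnmb4 and other members, among them Kcna6, Kcnab1, Kcnab3, Kcnd3, Kcnip4, Kcnj3, Kcnj6, Kcnj9, Kcnk1, Kcnk2, Kcnma1, Kcnn1 and Kcnn2. Scripts (Python 3.11.15, pandas 2.3.3, scipy 1.17.1) were tested on simulated data.

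Genes named were all members of at least 5 FPKM, those past the size rule, up to 4 per class with the largest ratios either way, and the 6 with the largest difference in transcript share; some genes that the rule names are not reported here; other members and the partner and marker genes were named to complete a group. The members and lists were chosen with earlier results of these data known. Alternatives were the pseudocount, the filter, scaling, the second table and the highest transcript only. The counts at log2 ratios of 0 and -0.5 were added after seeing the data.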

Additional observations from a re-analysis of the deposited data

How the results depend on the processing

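Kcnj14 passed the size rule under all 7 alternatives, alone except with a pseudocount of 0.1 FPKM, where 3 genes passed (Kcnh7 and Kcnq3 as well). The count of genes below 0 was 49 with a pseudocount of 0.1 or 5, with scaling and in the second table, where 40.1% of all genes lay below 0, 48 with the highest transcript only, 63 of 73 with no filter and 36 of 40 at a filter of 5 FPKM. The count at -0.5 or lower was 8 with a pseudocount of 5 (1.66% of all genes) and 25 with 0.1 (7.17%). With a pseudocount of 5 the medians were -0.25 for all channels, -0.25 voltage-gated, -0.27 inward rectifier, -0.10 two-pore and -0.28 calcium-activated; with 0.1 they were -0.66 for inward rectifiers and -0.37 for two-pore channels. The calcium-activated median was -0.25 with no filter and -0.15 with the highest transcript only, where Kcnma1 stood at 0.03; the two-pore median was -0.021 at the 5 FPKM filter, where 2 genes remained. The differing gene sets and pseudocounts are the construction of these alternatives; no other cause was tested. No other named gene changed sign. No paired analysis was possible because each group has 1 library, and no library could be left out. Depth limits the 34 genes under 1 FPKM.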

Other observations

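All 10 microglia markers were higher in the mutant library (summed level 412% of the control). The levels of 4 channel genes known from microglia or macrophages are given beside this. Kcna3, which neurons also express, had 6.06 and 4.31 FPKM in control and mutant retina. Kcnk13, the THIK-1 channel of resting microglia, had 0.220 and 0.197 FPKM (52.9% to 152% of the control), an interval that includes no difference. The intermediate-conductance gene Kcnn4 had 0.0805 and 0.0470 FPKM, on about 7 and 5 fragments, and its interval (14.6% to 214%) includes both a lower and a higher level. Kcnk6, the TWIK-2 channel of macrophages, was higher, at 0.205 and 0.534 FPKM (180% to 385% of the control). These 4 genes were picked after their values were seen.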
